A study of Mus musculus with 9 samples.

Results

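Oxidative phosphorylation is carried out by 5 protein complexes in the inner mitochondrial membrane. Complexes I to IV pass electrons from NADH and succinate to oxygen and, except for complex II, pump protons, and complex V, the ATP synthase, uses the proton gradient to make ATP. Most of their subunits are encoded in the nucleus, translated in the cytosol and imported, and the rest are encoded in the mitochondrial genome. Cycling progenitors of the early cortex rely largely on glycolysis, and differentiating neurons come to depend more on this chain. The genes described here are those whose symbol starts with Ndufa, Ndufb, Ndufc, Ndufs, Ndufv, Uqcr, Cox4 to Cox8 or Atp5, with Sdha to Sdhd. Of 107 such symbols, 8 Ndufaf assembly factors and 9 symbols with -ps were left out, and 10 of the remaining 90 did not have more than 10 reads in each of the 9 libraries. The 80 members are among 13680 genes that passed this minimum and were tested, of 57010 in the table. Complex I has 37 of them, complex II 4, complex III 8, complex IV 14 and complex V 17.

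RNA came from cortices of single mouse embryos at E12.5, with 3 embryos in each of 3 groups, and poly(A) RNA was sequenced in 1 library per embryo. The Cnot3 cKO embryos carry Emx1-Cre with floxed Cnot3 alleles (Cnot3 lox/lox), the Cnot3;Trp53 dcKO embryos, labelled Cnot3;p53 dcKO, carry Emx1-Cre with floxed Cnot3 and Trp53 alleles (Cnot3 lox/lox and Trp53 lox/lox), and the control (Ctrl) embryos are labelled WT, with no further alleles given in the sources used here. Emx1-Cre is active in radial glia of the dorsal telencephalon and their progeny, so blood, vessels, microglia, meninges and other cells in the dissected tissue keep their alleles. Values are listed in the order of replicates 1, 2 and 3, and levels are in CPM, reads scaled to library size with the trimmed mean of M-values (TMM). The libraries held 26455779, 21193798 and 28869816 reads in Ctrl, 25946075, 24835674 and 25218324 in cKO and 34196798, 45073349 and 23275370 in dcKO.

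The targeted genes were read first as a check of the labels. Cnot3, a subunit of the CCR4-NOT deadenylase complex, had 117.3, 107 and 98.2 CPM in Ctrl, 15.0, 17.2 and 14.6 in cKO and 7.33, 48.2 and 19.0 in dcKO. All 6 mutant libraries were below all 3 Ctrl libraries, and the library labelled dcKO replicate 2 had the highest level among the mutants. Its log2 fold change was -2.79 (SE 0.54, adjusted p = 0.0509) in cKO and -2.11 (SE 0.52, adjusted p = 0.0529) in dcKO. DESeq2 called Cnot3 in both, at -2.80 (adjusted p = 1.22e-05) and -2.13 (adjusted p = 0.00119), and edgeR on the 6 libraries compared gave adjusted p-values of 2.73e-06 and 0.2. Trp53 had 237, 254 and 215 CPM in Ctrl, 167, 164 and 167 in cKO and 15.1, 110.4 and 20.6 in dcKO. The libraries of dcKO replicates 1 and 3 were far below all others, and the library labelled dcKO replicate 2 kept several times their level. In dcKO the log2 fold change of Trp53 was -2.27 (SE 0.62, adjusted p = 0.0605), and in cKO it was -0.50 (SE 0.59, adjusted p = 0.616). On the 6 libraries compared the adjusted p-values were 0.2 and 0.000831, and DESeq2 gave no adjusted p for Trp53. All 3 cKO libraries were below all Ctrl libraries. The library labelled dcKO replicate 2 held much more RNA of both targeted genes than the other 2 dcKO libraries, and without it edgeR called both in dcKO, Cnot3 at -3.03 (adjusted p = 0.00315) and Trp53 at -3.72 (adjusted p = 0.000159). Without dcKO replicate 3, with replicate 2 kept, both were called as well, at -1.95 (adjusted p = 0.0159) and -1.91 (adjusted p = 0.0209), and without dcKO replicate 1 neither was, at -1.67 (adjusted p = 0.116) and -1.84 (adjusted p = 0.16). With a correction for GC content Cnot3 was called in cKO, -2.45 (adjusted p = 0.0351), and in dcKO neither gene was, with -1.25 (adjusted p = 0.202) for Cnot3 and -1.83 (adjusted p = 0.115) for Trp53. For named members the value in dcKO without 1 of the dcKO libraries is given where it is called, changes sign or differs by more than 1 SE.

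The first comparison asks how the respiratory chain genes differ when Cnot3 is removed. The members took 0.973, 1.01 and 1.01% in Ctrl, 0.997, 0.974 and 0.991 in cKO and 0.910, 0.837 and 1.06 in dcKO of the reads. After TMM scaling the shares were 1.05, 1.07 and 1.05% in Ctrl, 0.944, 0.900 and 0.942 in cKO and 0.864, 0.964 and 1.02 in dcKO. On the unscaled share the cKO libraries lay inside the Ctrl range, and on the scaled share every cKO and dcKO library lay below every Ctrl library. In each library the median over the members of the log2 ratio to the mean of Ctrl was 0.01, 0.02 and -0.00 in Ctrl, -0.27, -0.35 and -0.26 in cKO and -0.47, -0.24 and -0.10 in dcKO. All 6 mutant libraries were below all 3 Ctrl libraries on this measure, with dcKO replicate 3 nearest to Ctrl. The same median over all genes tested was between -0.02 and 0.05 in every library.

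In cKO against Ctrl the median log2 fold change of the 80 members was -0.28, beside 0.01 over the 13680 genes tested, with 23 members above 0 and 57 below (6933 and 6747 of all genes). Fewer cells of a type and less RNA per cell cannot be told apart in such libraries. Upper-quartile scaling shifts the median of all genes in cKO by 0.11, and relative to the median of all genes the members' median was -0.29 with TMM, with relative log expression (RLE) and with upper-quartile factors. Calls needed an adjusted p under 0.05 and a log2 fold change above 1 in size. With edgeR on all 9 libraries 0 members were called (0.0146% of all genes tested), and at an unadjusted p under 0.05 the test gave 8 higher (15.3% of all genes) and 15 lower (11.7%). DESeq2 called 1 member, Uqcrq, with a lower level (8.82% of all genes, both directions), and without the fold limit 3 higher (9.6%) and 7 lower (7.07%). Genes to which DESeq2 gave no p-value are counted as not called. Ndufa11 was such a member in every comparison, with a DESeq2 log2 fold change of -1.36 in cKO. The 3 higher ones were Ndufa9, Ndufs3 and Uqcrc2, the last 2 of them named after their values were seen, and the 7 lower ones were Uqcrq, Cox6a1, Cox6b1, Cox6c, Cox7a2l, Cox8a and Atp5e, with Cox6c and Atp5e named after their values were seen. In 13 members every cKO library was above every Ctrl library (29.2% of all genes), and in 41 every cKO library was below (28.0%). That is 16.2% of the members above and 51.2% below.

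The spread of the dcKO libraries enters the test of cKO through the shared dispersion. With edgeR on the 6 Ctrl and cKO libraries alone, 2 members were called higher (6.91% of all genes) and 9 lower (5.94%). The same fit without the fold limit gave 11 higher (24.0%) and 41 lower (24.2%). Leaving out the library of dcKO replicate 3 from the fit of all libraries gave 1 higher (5.28%) and 9 lower (5.49%) in cKO, although it removes no cKO or Ctrl library. Without the library labelled dcKO replicate 2 the test called 1 member in cKO (8.34%), Cox6b2, and without dcKO replicate 1 it called 1 (6.72%), Uqcrq. The 9 genes with a lower level in the fit of 6 libraries were Atp5d, Ndufa13, Uqcr11, Ndufa2, Ndufb7, Ndufa11, Uqcrq, Uqcr10 and Ndufs7, and the 2 with a higher level were Cox6b2 and Ndufa4l2. Those outside the naming rule, Ndufa13, Ndufa2, Ndufa11, Uqcr10 and Ndufs7, were named after their values were seen.

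In dcKO against Ctrl, which uses the same 3 controls, the members' median log2 fold change was -0.21, beside 0.11 over all genes tested, with 31 members above 0 and 49 below (7780 and 5900 of all genes). Relative to the median of all genes it was -0.32 with TMM and RLE factors and -0.33 with upper-quartile factors. With edgeR 0 members were called in dcKO (0.0% of all genes tested), and the unadjusted p gave 8 higher (18.0%) and 20 lower (11.2%). DESeq2 called 0 members in dcKO (8.46% of all genes), and without the fold limit 3 higher (10.3%), Ndufs1, Uqcrc2 and Uqcrb, and 12 lower (7.4%), Cox4i1, Cox5b, Cox6a1, Cox6b1, Cox7a2l, Cox8a, Ndufa3, Ndufs5, Ndufs6, Atp5e, Atp5j2 and Atp5k. Those outside the naming rule, Uqcrc2, Cox5b, Ndufa3, Ndufs5, Ndufs6, Atp5e, Atp5j2 and Atp5k, were named after their values were seen. Ndufa11, without a DESeq2 p-value, had a DESeq2 log2 fold change of -1.39 in dcKO. The fit of the 6 Ctrl and dcKO libraries called 0 members (0.0%). Every dcKO library was above every Ctrl library in 7 members (15.6% of all genes) and below in 17 (11.2%). The calls in dcKO turn on the library of dcKO replicate 3, for without it edgeR called 1 member higher (8.46%), Uqcrb, and 20 lower (15.3%). Without the library labelled dcKO replicate 2 it called 2 (9.72%), Ndufa4l2 and Atp5s, both higher. Leaving out 1 library at a time, the members' median in dcKO was lowest at -0.34 and highest at -0.09.

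The comparison of dcKO with cKO asks what removing Trp53 adds. The members' median log2 fold change was 0.05, beside 0.07 over all genes, with 46 members above 0 and 34 below (8018 and 5662 of all genes). The test by edgeR called 0 members (0.0146% of all genes tested), with 0 higher (2.05%) and 0 lower (2.38%) at an unadjusted p under 0.05, and DESeq2 called 0 (0.38%). Every dcKO library was above every cKO library for 2 members (2.62% of all genes), Ndufa6 and Ndufb6, and below for 1 (3.63%), Cox6b2. Ndufa6 and Ndufb6 were named after their values were seen. Without the library of dcKO replicate 3 edgeR called 0 members higher (2.58%) and 8 lower (6.45%), so the count rests on which dcKO libraries are compared. The members' median was then -0.12, and without dcKO replicate 1 it was 0.17.

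**Figure D1:**
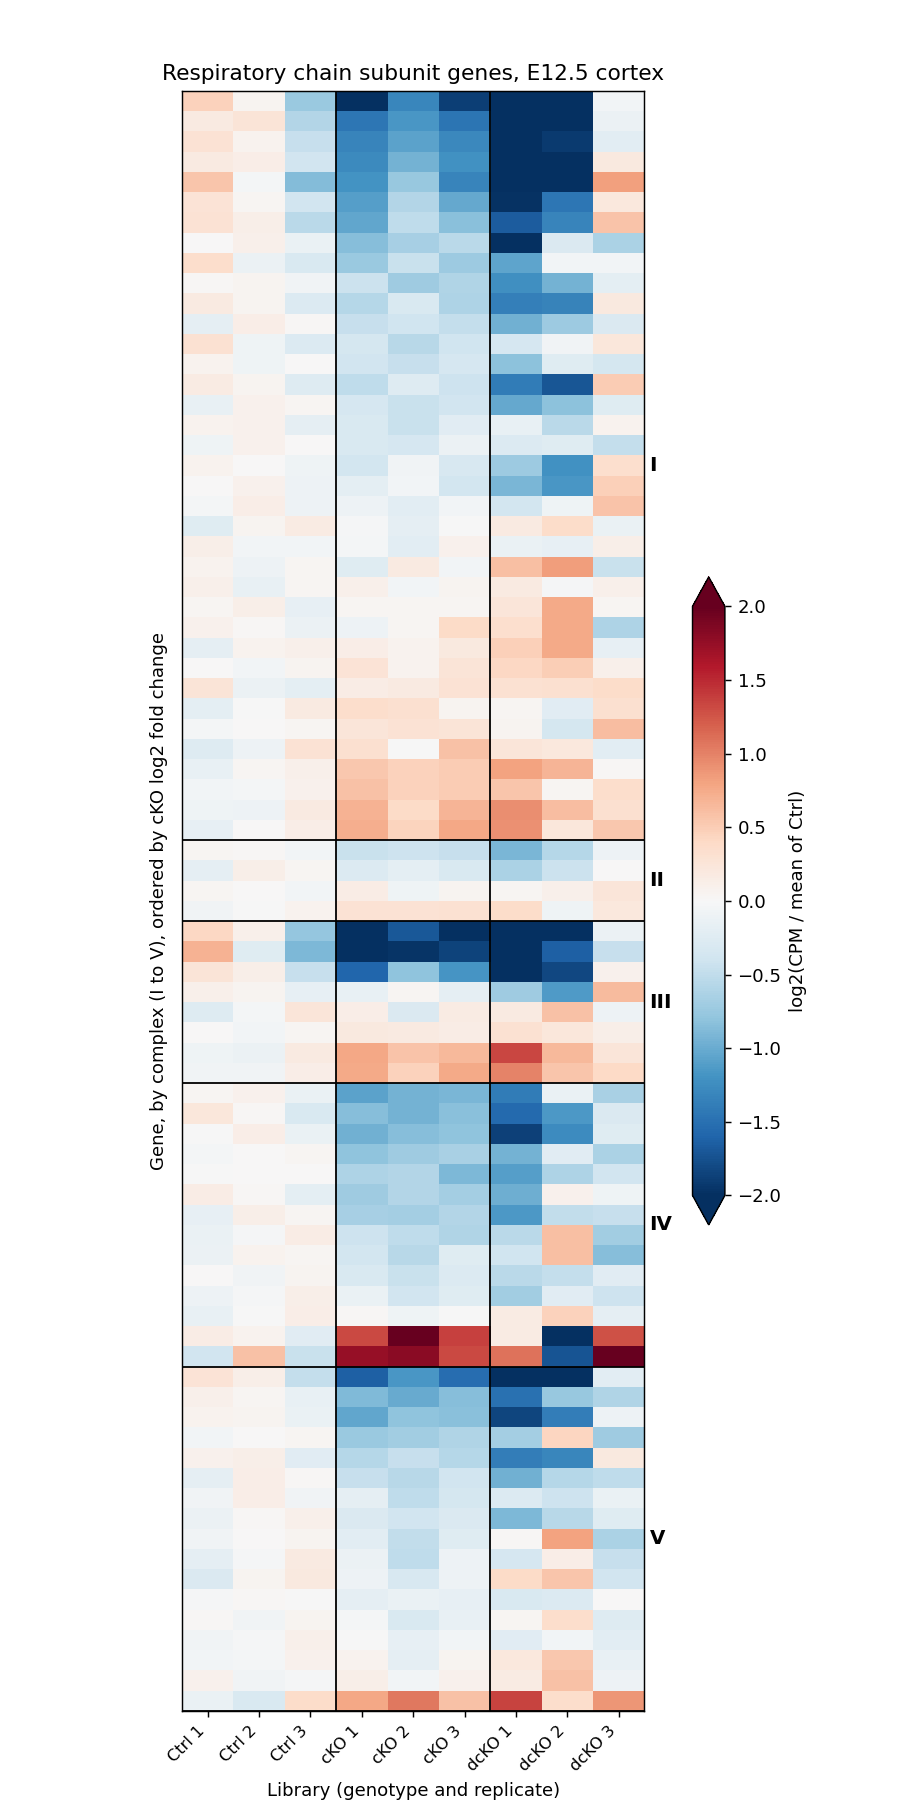
Log2 ratio of each member's CPM to its mean in Ctrl, with 80 genes ordered by complex and by their log2 fold change in cKO on one axis and the 9 libraries on the other, on a colour scale from -2 to 2. Most complex IV genes are below Ctrl in the 3 cKO libraries, and the libraries of dcKO replicates 1 and 2 differ from that of dcKO replicate 3 in many genes.

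By complex, the median log2 fold change in cKO was -0.24 for complex I, -0.11 for complex II, -0.04 for complex III, -0.57 for complex IV and -0.31 for complex V. In dcKO the medians were -0.18, -0.10, 0.01, -0.42 and -0.20 in the same order. Over 23 alternative settings the complex IV median in cKO lay between -0.63 and -0.32 and in dcKO between -0.73 and -0.33. In cKO the range was -0.30 to -0.13 for complex I, -0.249 to -0.001 for complex II and -0.37 to -0.20 for complex V. In dcKO it was -0.31 to -0.055 for complex I, -0.27 to -0.06 for complex II and -0.31 to -0.13 for complex V. The complex III median changed sign in both comparisons, being below 0 in 21 of the 23 settings in cKO and in 11 in dcKO. In each library the complex IV median of the log2 ratio to the mean of Ctrl was -0.03, 0.02 and 0.02 in Ctrl, -0.52, -0.57 and -0.59 in cKO and -0.82, -0.36 and -0.34 in dcKO. All 6 mutant libraries were below the Ctrl libraries, and dcKO replicate 1 was the lowest.

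Exact two-sided permutation tests of 3 libraries against 3, which cannot go below p = 0.1, reach that value where the libraries do not overlap, and did so for 54 of the 80 members in cKO (57.2% of all genes tested), 24 in dcKO (26.8%) and 3 in dcKO against cKO (6.24%). Levels of different genes are compared below only as mean Ctrl CPM per kilobase of the annotated transcript chosen for each gene, with SD over 3 libraries. For coding genes that transcript has the best APPRIS rank (a ranking of main isoforms), then the best support level. Among ties, and for other genes, the one of lower median length was taken. Adjusted p-values are from edgeR on all 9 libraries unless DESeq2 is named.

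Complex I takes electrons from NADH. Ndufs1, the largest iron-sulfur subunit, had 93.0, 92.3 and 112 CPM in Ctrl, 159.8, 129 and 159 in cKO and 189, 152 and 124 in dcKO. Every mutant library was above all Ctrl libraries. Ndufs1 had a log2 fold change of 0.59 (SE 0.19, adjusted p = 0.0896) in cKO and 0.65 (SE 0.19, adjusted p = 0.0705) in dcKO, where the DESeq2 adjusted p was 0.0372. Ndufv1, the flavoprotein that binds NADH, had 135, 142 and 125 CPM in Ctrl, 118, 129 and 104 in cKO and 70.9, 60.1 and 186 in dcKO. The cKO and Ctrl libraries overlapped, and in dcKO replicates 1 and 2 were the lowest of the 9 and replicate 3 the highest. For Ndufv1 the log2 fold change was -0.20 (SE 0.36, adjusted p = 0.754) in cKO and -0.34 (SE 0.36, adjusted p = 0.543) in dcKO. With the library of dcKO replicate 3 left out, the value in dcKO was -1.03 (adjusted p = 0.000457).

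Among the accessory subunits of complex I, Ndufa9 had the highest mean change and Ndufb7 the lowest. Ndufa9, which lies near the quinone site, had 75.9, 85.6 and 92.5 CPM in Ctrl, 140.1, 115 and 145 in cKO and 160.4, 99.1 and 124 in dcKO. All mutant libraries were above all Ctrl libraries. Ndufa9 had a log2 fold change of 0.66 (SE 0.20, adjusted p = 0.0788) in cKO, where DESeq2 gave an adjusted p of 0.0369, and 0.59 (SE 0.20, adjusted p = 0.0919) in dcKO. Ndufb7, on the side of the intermembrane space, had 89.9, 67.7 and 39.0 CPM in Ctrl, 16.1, 26.4 and 17.8 in cKO and 4.14, 7.97 and 63.3 in dcKO. Levels in cKO were below Ctrl, dcKO replicates 1 and 2 were lower still, and dcKO replicate 3 was inside the Ctrl range, which is itself wide. For Ndufb7 the log2 fold change was -1.71 (SE 0.82, adjusted p = 0.211) in cKO, -1.39 (SE 0.81, adjusted p = 0.278) in dcKO and 0.32 (SE 0.80, adjusted p = 0.984) in dcKO against cKO. Without dcKO replicate 3 these were -1.71 (adjusted p = 0.00701), -3.43 (adjusted p = 0.00033) and -1.73 (adjusted p = 0.0173), so the direction between the mutants turns on that library. Of the 37 genes of complex I, 13 had a log2 fold change above 0 and 24 below in cKO, with 6 and 15 whose cKO libraries did not overlap Ctrl (29.2% and 28.0% of all genes tested).

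Complex II oxidises succinate and is the 1 complex with no subunit from the mitochondrial genome. Its catalytic flavoprotein, Sdha, had 294, 309 and 325 CPM in Ctrl, 379.5, 376 and 382 in cKO and 400.5, 292 and 358 in dcKO. All of cKO was above Ctrl, and dcKO replicate 2 was below every Ctrl library while the other 2 dcKO libraries were above. Sdha had a log2 fold change of 0.29 (SE 0.16, adjusted p = 0.266) in cKO and 0.18 (SE 0.16, adjusted p = 0.473) in dcKO. Sdhb, the iron-sulfur subunit that binds Sdha, had the highest level per length of the 4 genes, 130.4 ± 4.10 CPM per kilobase. It had 152, 151 and 144 CPM in Ctrl, 109.9, 112 and 108 in cKO and 79.2, 100.4 and 138 in dcKO. Each mutant library was below all Ctrl libraries, with dcKO replicate 3 the closest. For Sdhb the log2 fold change was -0.44 (SE 0.20, adjusted p = 0.185) in cKO and -0.49 (SE 0.20, adjusted p = 0.137) in dcKO, the latter -0.73 (adjusted p = 0.00162) without dcKO replicate 3. The membrane anchors Sdhc and Sdhd had log2 fold changes of -0.26 and 0.04 in cKO, neither of them called.

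Complex III passes electrons from ubiquinol to cytochrome c. Uqcrc1, a core protein on the matrix side, had 214, 208 and 178 CPM in Ctrl, 179.8, 206 and 177 in cKO and 122, 91.3 and 310.0 in dcKO. The cKO and Ctrl libraries overlapped, and dcKO replicates 1 and 2 were the lowest and replicate 3 the highest of the 9. Its log2 fold change was -0.09 (SE 0.37, adjusted p = 0.893) in cKO, where upper-quartile factors gave 0.01 (adjusted p = 0.987), and -0.20 (SE 0.37, adjusted p = 0.742) in dcKO. Without dcKO replicate 1 the value in dcKO was 0.00 (adjusted p = 0.999), without replicate 2 it was 0.11 (adjusted p = 0.839) and without replicate 3 it was -0.91 (adjusted p = 0.00137). Uqcrfs1, the Rieske iron-sulfur protein, had 112, 108 and 115 CPM in Ctrl, 128, 126 and 123 in cKO and 138, 131 and 121.3 in dcKO. All mutant libraries were above all Ctrl libraries by a small amount. The log2 fold change of Uqcrfs1 was 0.17 (SE 0.14, adjusted p = 0.437) in cKO and 0.22 (SE 0.14, adjusted p = 0.299) in dcKO.

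The small subunits of complex III had different values. Uqcrh, the hinge protein that contacts cytochrome c1, had the highest level per length of the complex, 326 ± 57.8 CPM per kilobase. It had 149, 174 and 212 CPM in Ctrl, 195, 146 and 199 in cKO and 202, 269 and 166 in dcKO, and the groups overlapped. Its log2 fold change was 0.01 (SE 0.22, adjusted p = 0.979) in cKO, a value that RLE factors, DESeq2, filterByExpr, no filter and protein-coding genes only turn to the other side of 0 and that was -0.10 (adjusted p = 0.861) without Ctrl replicate 1, -0.00 (adjusted p = 0.995) without Ctrl replicate 2, -0.05 (adjusted p = 0.934) without cKO replicate 1 and -0.08 (adjusted p = 0.886) without cKO replicate 3. In dcKO it was 0.25 (SE 0.22, adjusted p = 0.473). Uqcrb, which binds near the quinone site, had 55.4, 54.1 and 66.5 CPM in Ctrl, 100.2, 86.9 and 91.7 in cKO and 148, 91.8 and 69.1 in dcKO. All mutant libraries were above all Ctrl libraries, dcKO replicate 3 by the least. Uqcrb had a log2 fold change of 0.66 (SE 0.25, adjusted p = 0.131) in cKO and 0.81 (SE 0.26, adjusted p = 0.0796) in dcKO, and without dcKO replicate 3 edgeR called it in dcKO at 1.03 (adjusted p = 0.00177), while without dcKO replicate 1 the value was 0.46 (adjusted p = 0.241). The DESeq2 adjusted p of Uqcrb in dcKO was 0.0427.

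Uqcr11 (ENSMUSG00000020163.13, chr10:80402997-80406830, - strand of GRCm38 in GENCODE M21) encodes the smallest subunit and had the lowest mean change of complex III. It had 73.0, 58.9 and 31.9 CPM in Ctrl, 10.98, 16.9 and 9.50 in cKO and 3.33, 5.88 and 50.1 in dcKO. In cKO all libraries were below all Ctrl libraries, dcKO replicates 1 and 2 were below all cKO libraries, and dcKO replicate 3 was inside the Ctrl range. Tested by edgeR, Uqcr11 had a log2 fold change of -2.13 (SE 0.85, adjusted p = 0.143) in cKO, -1.47 (SE 0.83, adjusted p = 0.261) in dcKO and 0.66 (SE 0.82, adjusted p = 0.928) in dcKO against cKO. With dcKO replicate 3 left out, edgeR called Uqcr11 in all 3 comparisons, at -2.13 (adjusted p = 0.0051), -3.56 (adjusted p = 0.000314) and -1.43 (adjusted p = 0.0278). Uqcrq (ENSMUSG00000044894.15, chr11:53427922-53430831, - strand), a small subunit that contacts cytochrome b, had 57.6, 30.3 and 19.1 CPM in Ctrl, 8.14, 9.19 and 9.92 in cKO and 4.30, 11.5 and 25.9 in dcKO. All cKO libraries were below Ctrl, dcKO replicates 1 and 2 were below Ctrl, and dcKO replicate 3 was inside the Ctrl range. For Uqcrq the log2 fold change in cKO was -1.97 (SE 0.59, adjusted p = 0.076), and DESeq2 called it at -1.99 (adjusted p = 0.00638). It was called in cKO too by edgeR without dcKO replicate 1, -1.97 (adjusted p = 0.0271), without dcKO replicate 3, -1.97 (adjusted p = 0.0096), on the 6 libraries, -1.97 (adjusted p = 0.000967), with no filter, -2.03 (adjusted p = 0.0226), and with a correction for GC content, -1.53 (adjusted p = 0.0355), by voom, -1.88 (adjusted p = 0.000244), and in the 2 settings chosen after seeing the data, DESeq2 without the library labelled dcKO replicate 2, -1.98 (adjusted p = 0.00233), and 6 libraries with the GC correction, -1.53 (adjusted p = 0.000492). In dcKO the value was -1.36 (SE 0.58, adjusted p = 0.152), and it was called without dcKO replicate 3, -2.17 (adjusted p = 0.00532), and by voom, -2.62 (adjusted p = 0.00341).

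Complex IV, cytochrome c oxidase, hands the electrons to oxygen, and its nuclear subunits surround a core from the mitochondrial genome. Cox4i1 (ENSMUSG00000031818.13, chr8:120668222-120674207, + strand) had the highest level per length of this complex, 359 ± 32.8 CPM per kilobase, and its lowest mean change. It had 264, 293 and 244 CPM in Ctrl, 138, 148 and 153 in cKO and 73.3, 112 and 226 in dcKO. All 6 mutant libraries were below all Ctrl libraries, dcKO replicate 1 by the most and dcKO replicate 3 by the least. Cox4i1 had a log2 fold change of -0.87 (SE 0.33, adjusted p = 0.131) in cKO and -0.97 (SE 0.33, adjusted p = 0.0967) in dcKO, where the DESeq2 adjusted p was 0.0348. Without dcKO replicate 3 edgeR called it in dcKO at -1.53 (adjusted p = 0.000311). Cox5a, which sits on Cox4i1 on the matrix side, had 39.8, 45.7 and 44.5 CPM in Ctrl, 33.6, 29.4 and 36.5 in cKO and 32.7, 65.9 and 24.1 in dcKO. The cKO libraries were below Ctrl, and in dcKO replicate 2 was above every Ctrl library while replicates 1 and 3 were below. The log2 fold change of Cox5a was -0.39 (SE 0.32, adjusted p = 0.473) in cKO and -0.08 (SE 0.32, adjusted p = 0.88) in dcKO, the latter -0.61 (adjusted p = 0.0615) without the library labelled dcKO replicate 2, 0.06 (adjusted p = 0.947) without dcKO replicate 1 and 0.19 (adjusted p = 0.558) without dcKO replicate 3.

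Several subunits of complex IV have isoforms used in other tissues, and the forms found outside muscle were the ones read here. Cox6a1 had 120.2, 103 and 83.2 CPM in Ctrl, 56.9, 52.9 and 57.0 in cKO and 34.8, 46.0 and 83.6 in dcKO. Only dcKO replicate 3 of the mutants reached the range of Ctrl, just above its lowest value. For Cox6a1 the log2 fold change was -0.88 (SE 0.29, adjusted p = 0.0969) in cKO and -0.90 (SE 0.29, adjusted p = 0.0855) in dcKO, and DESeq2 gave adjusted p-values of 0.0376 and 0.0276. Without dcKO replicate 3 the value in dcKO was -1.34 (adjusted p = 0.000466). Cox6b1, on the side of the intermembrane space, had 134, 162 and 154 CPM in Ctrl, 94.9, 93.7 and 100.2 in cKO and 67.4, 107 and 109 in dcKO. All mutant libraries were below all Ctrl libraries. Cox6b1 had a log2 fold change of -0.64 (SE 0.20, adjusted p = 0.0806) in cKO and -0.67 (SE 0.20, adjusted p = 0.0693) in dcKO, with DESeq2 adjusted p-values of 0.0307 and 0.0192. Cox8a had 102, 102 and 102 CPM in Ctrl, 66.4, 68.1 and 54.8 in cKO and 47.4, 66.2 and 77.7 in dcKO. Here too the 6 mutant libraries were below Ctrl, whose 3 values were nearly equal. Cox8a had a log2 fold change of -0.69 (SE 0.20, adjusted p = 0.0694) in cKO and -0.68 (SE 0.20, adjusted p = 0.0692) in dcKO, with DESeq2 adjusted p-values of 0.0169 and 0.0162, and with a correction for GC content the value in dcKO was 0.14 (adjusted p = 0.767).

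Cox7a2 had 99.4, 105 and 115 CPM in Ctrl, 96.8, 82.1 and 90.5 in cKO and 65.7, 90.6 and 80.3 in dcKO, and all 6 mutant libraries were below Ctrl. Cox7a2 had a log2 fold change of -0.25 (SE 0.17, adjusted p = 0.37) in cKO and -0.43 (SE 0.17, adjusted p = 0.122) in dcKO. Cox7a2l, a related protein that joins complexes III and IV into supercomplexes, had 203, 210.4 and 214 CPM in Ctrl, 120, 127 and 134 in cKO and 109, 178 and 135 in dcKO. Every mutant library was below every Ctrl library, and dcKO replicate 2 was the highest of the mutants. For Cox7a2l the log2 fold change was -0.72 (SE 0.19, adjusted p = 0.058) in cKO and -0.57 (SE 0.19, adjusted p = 0.0858) in dcKO, with DESeq2 adjusted p-values of 0.0101 and 0.0387. Without the library labelled dcKO replicate 2 the value in dcKO was -0.78 (adjusted p = 0.00911). Ndufa4, once assigned to complex I and now placed in complex IV, had 137, 148 and 166 CPM in Ctrl, 113, 106 and 99.5 in cKO and 104, 227 and 92.7 in dcKO. The cKO libraries and dcKO replicates 1 and 3 were below Ctrl, and dcKO replicate 2 was above. The log2 fold change of Ndufa4 was -0.51 (SE 0.30, adjusted p = 0.306) in cKO and -0.09 (SE 0.30, adjusted p = 0.856) in dcKO, the latter -0.62 (adjusted p = 0.0204) without the library labelled dcKO replicate 2, 0.09 (adjusted p = 0.899) without dcKO replicate 1 and 0.14 (adjusted p = 0.681) without dcKO replicate 3.

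Cox6b2, known as the testis form of Cox6b1, and Ndufa4l2, the paralog of Ndufa4 known from cells short of oxygen, had low levels, 5.75 ± 0.760 and 2.79 ± 1.21 CPM per kilobase in Ctrl. Cox6b2 had 3.51, 3.32 and 2.704 CPM in Ctrl, 7.95, 13.4 and 8.22 in cKO and 3.55, 0.715 and 7.66 in dcKO. Every cKO library was above every Ctrl library, and every dcKO library was below every cKO library, the library labelled dcKO replicate 2 being the lowest of all. Tested by edgeR, Cox6b2 had a log2 fold change of 1.63 (SE 0.65, adjusted p = 0.144) in cKO and 0.31 (SE 0.64, adjusted p = 0.766) in dcKO, where voom gave -0.01 (adjusted p = 0.99). Without the library labelled dcKO replicate 2 edgeR called Cox6b2 in cKO at 1.64 (adjusted p = 0.0177), and without dcKO replicate 3 at 1.64 (adjusted p = 0.0323). In dcKO against cKO the log2 fold change was -1.32 (SE 0.65, adjusted p = 0.889), and without dcKO replicate 3 it was -2.21 (adjusted p = 0.0248), while against Ctrl it was then -0.58 (adjusted p = 0.413). Ndufa4l2 had 2.00, 3.92 and 1.91 CPM in Ctrl, 8.76, 9.15 and 6.52 in cKO and 5.53, 0.792 and 28.9 in dcKO. The cKO libraries and dcKO replicates 1 and 3 were above every Ctrl library, and the library labelled dcKO replicate 2 was below all. Ndufa4l2 had a log2 fold change of 1.65 (SE 0.93, adjusted p = 0.281) in cKO and 2.17 (SE 0.94, adjusted p = 0.16) in dcKO, and without the library labelled dcKO replicate 2 edgeR called it in dcKO at 2.72 (adjusted p = 0.0191). The value in dcKO rests on replicate 3, without which it was 0.28 (adjusted p = 0.741). With both genes left out, the median log2 fold change of the other 78 members was -0.31 in cKO and -0.23 in dcKO.

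The other isoforms did not pass the minimum of reads. Cox4i2, also known from cells short of oxygen, had 23, 35 and 65 reads in Ctrl, at least 107 in every cKO library, and 108, 9 and 162 in dcKO. It lies just outside the threshold because of the library labelled dcKO replicate 2, and without that library it would have passed. Cox7a1, the form of heart and muscle, had 4, 9 and 9 reads in Ctrl, 34, 67 and 26 in cKO and 40, 0 and 6 in dcKO. In both genes every cKO library was above every Ctrl library in unscaled reads, and neither was tested. On scaled levels the same held for 29.2% of all genes tested. Cox6a2, Cox7b2, Cox8b and Cox8c had 0 reads in all libraries, as did a duplicate identifier of Atp5o. The processed pseudogenes Cox6c2, Ndufa11b and Ndufs6b had at most 12 reads in a library. Just inside the threshold were Cox6b2 and Ndufa4l2, with lowest values of 28 and 31 reads.

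Complex V has a catalytic F1 head and a membrane part with a ring of c subunits. Atp5b, the catalytic beta subunit, had the highest level per length of all 80 members, 821 ± 51.2 CPM per kilobase. It had 1496, 1540.0 and 1683 CPM in Ctrl, 1560.0, 1400.0 and 1512 in cKO and 1348, 1515 and 1356 in dcKO, and the groups overlapped. Its log2 fold change was -0.08 (SE 0.16, adjusted p = 0.793) in cKO, where upper-quartile factors gave 0.03 (adjusted p = 0.928), and -0.16 (SE 0.16, adjusted p = 0.528) in dcKO. Atp5a1, the alpha subunit, had 1280.0, 1331 and 1300.0 CPM in Ctrl, 1147, 1185 and 1169 in cKO and 1050.0, 1079 and 1314 in dcKO. The cKO libraries and dcKO replicates 1 and 2 were below Ctrl, and dcKO replicate 3 was inside the Ctrl range. Atp5a1 had a log2 fold change of -0.16 (SE 0.16, adjusted p = 0.558) in cKO and -0.18 (SE 0.16, adjusted p = 0.473) in dcKO. Atp5d, the delta subunit of the central stalk, had 175, 157 and 104 CPM in Ctrl, 46.8, 65.2 and 50.8 in cKO and 16.4, 20.6 and 125 in dcKO. The cKO libraries were below Ctrl, dcKO replicates 1 and 2 were lower than all cKO libraries, and dcKO replicate 3 was inside the Ctrl range. Atp5d had a log2 fold change of -1.42 (SE 0.65, adjusted p = 0.191) in cKO and -1.43 (SE 0.65, adjusted p = 0.175) in dcKO, and without dcKO replicate 3 edgeR called it at -1.42 (adjusted p = 0.0051), -2.97 (adjusted p = 0.000289) and, in dcKO against cKO, -1.55 (adjusted p = 0.0137).

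Atp5g1, Atp5g2 and Atp5g3 encode precursors of the same c subunit that differ in their import sequence. Atp5g1 had 137, 136 and 118 CPM in Ctrl, 63.3, 74.96 and 72.9 in cKO and 36.5, 49.7 and 121.4 in dcKO. The cKO libraries and dcKO replicates 1 and 2 were below Ctrl, and dcKO replicate 3 was inside the Ctrl range. Atp5g1 had a log2 fold change of -0.89 (SE 0.37, adjusted p = 0.157) in cKO and -0.91 (SE 0.37, adjusted p = 0.136) in dcKO, the latter -1.59 (adjusted p = 0.000289) without dcKO replicate 3. Atp5g2, whose annotated transcript shares all of its 100-base stretches with the gene model Gm10175 so that its level is uncertain, had 266, 273 and 214 CPM in Ctrl, 169, 182 and 168 in cKO and 96.1, 102 and 288 in dcKO. All of cKO and dcKO replicates 1 and 2 were below Ctrl, and dcKO replicate 3 was above. Atp5g2 had a log2 fold change of -0.53 (SE 0.37, adjusted p = 0.379) in cKO and -0.63 (SE 0.37, adjusted p = 0.276) in dcKO, the latter -1.34 (adjusted p = 0.000289) without dcKO replicate 3. Atp5g3 had 225, 212 and 229.5 CPM in Ctrl, 215, 180.2 and 201 in cKO and 228, 282 and 186 in dcKO, and the groups overlapped. The log2 fold change of Atp5g3 was -0.16 (SE 0.18, adjusted p = 0.593) in cKO and 0.06 (SE 0.18, adjusted p = 0.829) in dcKO, where it was -0.10 (adjusted p = 0.658) without the library labelled dcKO replicate 2, -0.02 (adjusted p = 0.945) with filterByExpr and -0.04 (adjusted p = 0.985) with no filter.

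Atp5s, coupling factor B, had a low level, 3.69 ± 0.928 CPM per kilobase in Ctrl, and the highest mean change of complex V. It had 4.97, 4.41 and 7.03 CPM in Ctrl, 9.38, 11.4 and 8.18 in cKO and 13.9, 6.999 and 10.1 in dcKO. All of cKO and dcKO replicates 1 and 3 were above Ctrl, and the library labelled dcKO replicate 2 was just under the highest Ctrl value. Atp5s had a log2 fold change of 0.81 (SE 0.33, adjusted p = 0.152) in cKO and 0.91 (SE 0.33, adjusted p = 0.109) in dcKO, and without the library labelled dcKO replicate 2 edgeR called it in dcKO at 1.13 (adjusted p = 0.0303). Of the 17 genes of complex V, 2 had a log2 fold change above 0 and 15 below in cKO, and 6 and 11 in dcKO. Besides Atp5g2, Ndufb4c (a processed pseudogene that shares every stretch with Ndufb4) and Atp5l (61.4% shared, with Gm10221) have mostly shared sequence, and 21 of the 80 members share at least 1 stretch of 100 bases with another gene, so values of these genes are less certain.

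**Figure D2:**
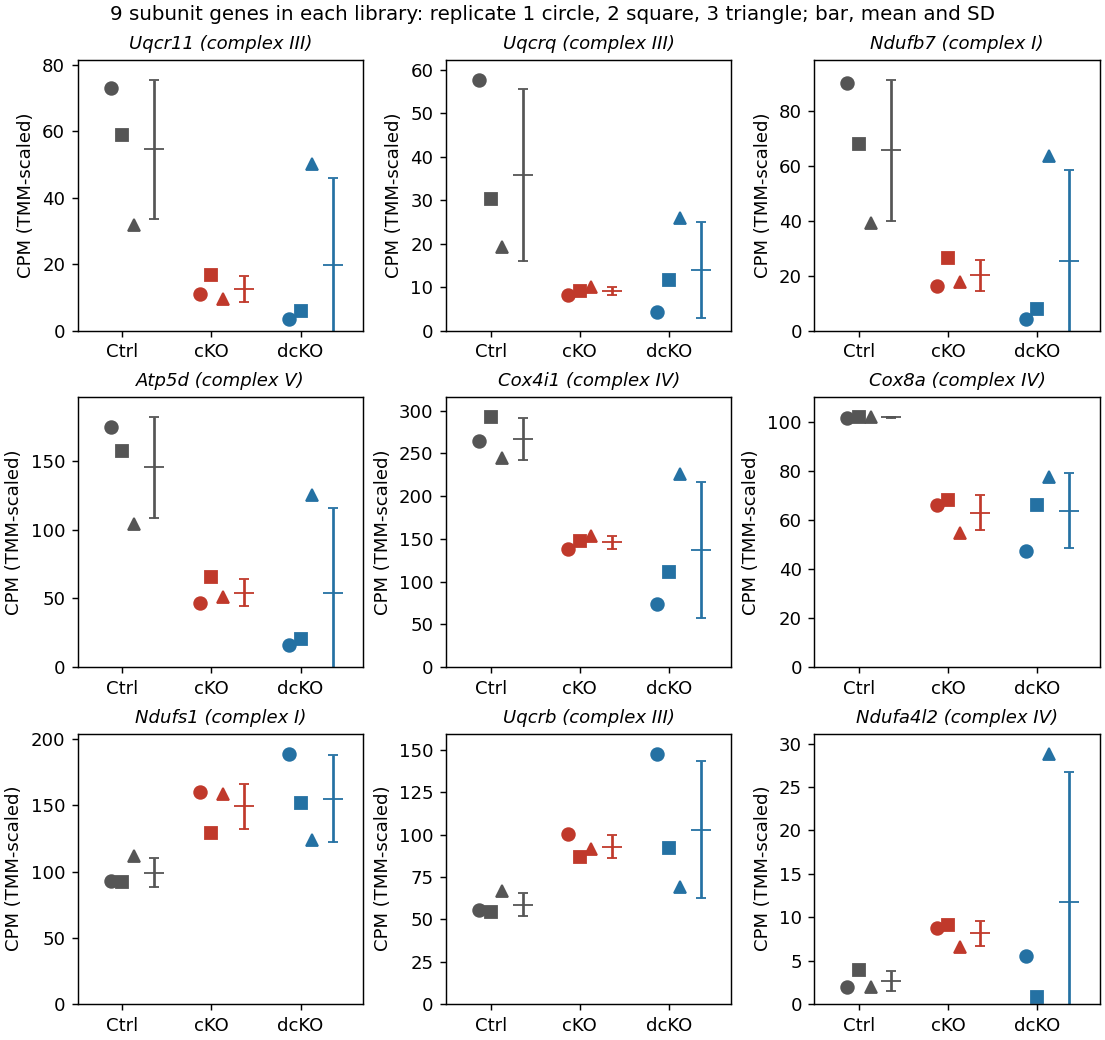
CPM in each library for 9 members, with circles for replicate 1, squares for replicate 2 and triangles for replicate 3 of Ctrl, cKO and dcKO, and the mean with SD (bars end at 0). In Uqcr11, Uqcrq, Ndufb7 and Atp5d the triangle of dcKO lies inside the range of Ctrl, and in Cox4i1 and Cox8a all 6 mutant libraries are below all 3 of Ctrl.

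The members have short transcripts. Their chosen annotated transcript has a median length of 786 bases (366 to 4660), beside 2791 over all genes tested, and a median GC content of 51.6% (39.0 to 61.1), beside 50.2%. They lie on 19 chromosomes, with at most 6 on the same one and 3 on X. Across members (n = 80, which share libraries and are not independent) the log2 fold change in cKO had a Spearman correlation of -0.43 with GC content and 0.49 with length, and in dcKO -0.56 and 0.40. Across the tested genes with an annotation (n = 13561 for GC content) the correlation with GC content was -0.38 in cKO and -0.60 in dcKO, and with length 0.05 and 0.02. The relation to GC content is thus not limited to the members. In each library the Spearman correlation over all genes of the log2 ratio to the mean of Ctrl with GC content was 0.33, 0.28 and -0.53 in Ctrl, -0.40, -0.26 and -0.43 in cKO and -0.62, -0.80 and 0.16 in dcKO. The Ctrl libraries themselves were on both sides of 0, and the 3 cKO libraries (below 0) and dcKO replicate 3 (above 0) were inside their range, while dcKO replicates 1 and 2 were below it. A ratio to the mean of the same 3 Ctrl libraries tends to put them on both sides of 0. Lying inside their range therefore does not show that a library is like Ctrl. Taken instead from the log2 ratio to the mean over the 9 libraries, it was 0.54, 0.56 and 0.29 in Ctrl, -0.13, 0.14 and -0.23 in cKO and -0.65, -0.70 and 0.62 in dcKO. On that reference every cKO library was below every Ctrl library. There dcKO replicates 1 and 2 were below all other libraries, and dcKO replicate 3 was above all.

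In each library the median log2 ratio of the 40 members with higher GC content was 0.08, 0.05 and -0.14 in Ctrl, -0.39, -0.45 and -0.38 in cKO and -0.94, -1.04 and -0.08 in dcKO. For the 40 members with lower GC content it was -0.06, 0.01 and 0.04 in Ctrl, -0.10, -0.25 and -0.10 in cKO and 0.04, 0.23 and -0.10 in dcKO. The higher GC members were far lower in dcKO replicates 1 and 2 than in replicate 3, and the cKO libraries were close to each other. Among the 23 members that are short and higher in GC the median log2 fold change in cKO was -0.69, beside -0.50 for the 455 tested genes in the same range. The 17 short members lower in GC had -0.45, beside -0.17 for 613 tested genes. For 17 long members higher in GC the values were -0.25 and -0.25 (5276 genes), and for 23 long members lower in GC 0.04 and 0.18 (7217 genes). In dcKO the 4 medians in the same order were -0.68 (-0.41 for the tested genes), -0.20 (0.19), -0.27 (-0.33) and 0.22 (0.36).

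With a correction of each library for GC content the members' median was -0.29 in cKO, beside -0.05 for all genes, and -0.21 in dcKO, beside 0.00. In cKO 13 members and in dcKO 12 then had the other sign. With a correction for GC content and length the medians were -0.20 in cKO and -0.20 in dcKO. Among named members, the correction for GC content alone gave Ndufv1 0.06 (adjusted p = 0.732), Uqcrc1 0.27 (adjusted p = 0.124) and Uqcrh -0.12 (adjusted p = 0.663) in cKO, each on the other side of 0 from the uncorrected value. In dcKO the same held for Ndufv1, 0.02 (adjusted p = 0.946), Uqcrc1, 0.26 (adjusted p = 0.185), Cox8a and Atp5g3, -0.01 (adjusted p = 0.985). With the correction for GC content and length the values on the other side were, in cKO, Uqcrc1 0.12 (adjusted p = 0.436), Uqcrfs1 -0.08 (adjusted p = 0.596), Cox8a 0.04 (adjusted p = 0.913) and Atp5g2 0.12 (adjusted p = 0.613), and in dcKO Sdha -0.05 (adjusted p = 0.834), Uqcrc1 0.12 (adjusted p = 0.484), Uqcrfs1 -0.05 (adjusted p = 0.75) and Cox8a 0.25 (adjusted p = 0.518). The correction for GC content also moved named members by more than 1 SE without a change of sign, in cKO Ndufs1 to 0.35 (adjusted p = 0.076), Uqcrfs1 to 0.02 (adjusted p = 0.915), Uqcrb to 0.39 (adjusted p = 0.157), Cox4i1 to -0.50 (adjusted p = 0.0744), Cox6a1 to -0.38 (adjusted p = 0.175), Cox8a to -0.26 (adjusted p = 0.516) and Atp5d to -0.73 (adjusted p = 0.0568). In dcKO it moved Ndufs1 to 0.33 (adjusted p = 0.119), Sdha to 0.01 (adjusted p = 0.962), Sdhb to -0.18 (adjusted p = 0.422), Uqcrfs1 to 0.05 (adjusted p = 0.778), Uqcrb to 0.31 (adjusted p = 0.298), Cox4i1 to -0.43 (adjusted p = 0.142), Cox6a1 to -0.16 (adjusted p = 0.603), Atp5g2 to -0.26 (adjusted p = 0.216) and Atp5s to 0.49 (adjusted p = 0.433), all nearer to 0, and Ndufa4 to -0.56 (adjusted p = 0.123), further from 0. With length corrected too, Cox6a1 was -0.10 (adjusted p = 0.643) in cKO and -0.05 (adjusted p = 0.843) in dcKO, and in cKO Uqcr11 was -1.25 (adjusted p = 0.103) and Uqcrq -1.17 (adjusted p = 0.056), neither of them called. The test corrected for GC content called 4 members in cKO (5.34% of all genes tested), Cox6b2 1.74 (adjusted p = 0.0476), Uqcr11 -1.62 (adjusted p = 0.0462), Uqcrq -1.53 (adjusted p = 0.0355) and Cox6c -1.13 (adjusted p = 0.0291), the last of them named after its values were seen. With length corrected too it called 2 (4.97%), Cox6b2 2.05 (adjusted p = 0.0439) and Ndufa4l2 2.25 (adjusted p = 0.0499). In dcKO both called 0 members (1.89% and 1.1%). How far GC content or length enters the values of any member was not tested.

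**Figure D3:**
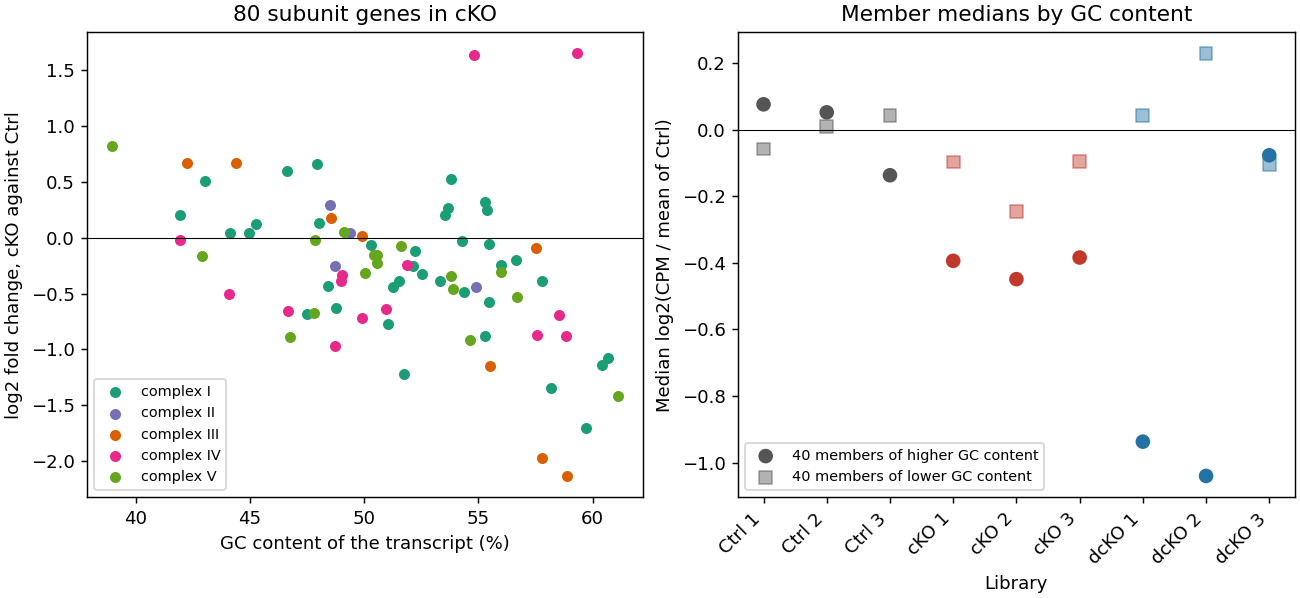
Left, log2 fold change in cKO against Ctrl by GC content of the transcript in percent, 1 point per member and coloured by complex. Right, the median log2 ratio to the mean of Ctrl in each library, with circles for the 40 members higher in GC and pale squares for the 40 lower in GC, the circles of dcKO replicates 1 and 2 lying at -0.94 and -1.04 and that of replicate 3 at -0.08.

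The labels give each embryo a code whose number is shared by some embryos of different groups. What the number stands for is not given in the sources used here. For the pair of cKO replicate 2 and Ctrl replicate 1, which share a number, the median log2 ratio of the members was -0.31, with 60 members lower and 20 higher in cKO. For cKO replicate 3 and Ctrl replicate 2, which share another, it was -0.28, with 55 lower and 25 higher. The only dcKO pair, dcKO replicate 3 and Ctrl replicate 3, had a median of 0.05, with 37 lower and 43 higher. Over all genes tested the 3 medians were -0.02, 0.01 and 0.06. So the 2 pairs of cKO had values near the pooled median of -0.28, and the pair of dcKO did not have a value below 0. The numbers of dcKO replicates 1 and 2 and of cKO replicate 1 are found in no other library, so there number and genotype cannot be told apart.

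Other genes of the same organelle were read from fixed lists, in each of which edgeR called 0 genes in any comparison. Over all genes tested, an unadjusted p under 0.05 gave 15.3% higher and 11.7% lower in cKO and 18.0% and 11.2% in dcKO, and DESeq2 at an adjusted p under 0.05 without the fold limit gave 9.6% and 7.07% in cKO and 10.3% and 7.4% in dcKO, and the counts below are to be read beside these shares. Of 48 assembly factors 44 were tested, and their median log2 fold change was 0.14 in cKO and 0.18 in dcKO, with 27 above 0 and 17 below in cKO. At an unadjusted p under 0.05 edgeR had 8 higher and 4 lower in cKO, and DESeq2 at an adjusted p under 0.05 without the fold limit had 7 and 1. Of cytochrome c, the carrier between complexes III and IV, and cytochrome c1, a complex III subunit with a symbol outside the rule for members, 2 of 2 were tested, with 0 higher and 0 lower in cKO at an unadjusted p under 0.05 and by DESeq2. Their log2 fold changes in cKO were -0.70 (SE 0.47, adjusted p = 0.371) for Cycs and -0.10 (SE 0.34, adjusted p = 0.874) for Cyc1. The 13 subunit genes of the mitochondrial genome had a median of -0.06 in cKO and 0.67 in dcKO, with 0 genes at an unadjusted p under 0.05 in cKO and 1 higher in dcKO, and 0 by DESeq2 in both. In each library their median log2 ratio to the mean of Ctrl was -0.27, 0.00 and 0.22 in Ctrl, -0.36, -0.01 and -0.03 in cKO and 0.72, 1.34 and -0.58 in dcKO, so the dcKO libraries disagreed in direction, with replicates 1 and 2 above every Ctrl library and replicate 3 below. The 16 genes of the tricarboxylic acid cycle and pyruvate dehydrogenase had a median of 0.24 in cKO and 0.15 in dcKO, with 5 higher and 1 lower in cKO at an unadjusted p under 0.05 and 1 higher by DESeq2.

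Of 77 genes of the mitochondrial ribosome 75 were tested, with a median of 0.08 in cKO and 0.09 in dcKO. At an unadjusted p under 0.05 there were 15 higher and 7 lower in cKO, and DESeq2 had 8 and 1. Of 26 genes of mitochondrial import 25 were tested, with a median of -0.15 in cKO and 0.05 in dcKO, with 3 higher and 1 lower at an unadjusted p under 0.05 in cKO and 2 and 0 by DESeq2. Of 15 regulators of mitochondrial gene expression 14 were tested, with a median of -0.16 in cKO and 0.09 in dcKO, with 2 higher and 1 lower at an unadjusted p under 0.05 in cKO and by DESeq2. The 80 members had a lower median than each of these lists in cKO except cytochrome c and c1. That difference was not tested. The regulators with the highest and the lowest value in cKO, chosen after their values were seen, were Ppargc1a and Esrra. Ppargc1a, a coactivator of mitochondrial genes, had 5.30, 4.36 and 5.37 CPM in Ctrl, 19.4, 25.3 and 12.6 in cKO and 19.96, 6.74 and 12.4 in dcKO. All 6 mutant libraries were above all Ctrl libraries. Its log2 fold change in cKO was 1.93 (SE 0.41, adjusted p = 0.0509). Esrra, a nuclear receptor that works with it, had 12.4, 9.92 and 4.65 CPM in Ctrl, 2.85, 4.05 and 2.56 in cKO and 0.527, 1.25 and 10.2 in dcKO. The cKO libraries and dcKO replicates 1 and 2 were below Ctrl, and dcKO replicate 3 was inside the Ctrl range. In cKO the log2 fold change of Esrra was -1.51 (SE 0.88, adjusted p = 0.297).

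Cell types differ in their need for the chain, so marker lists were read in the same libraries. The part of cell types in the results was not tested. Dorsal telencephalon markers (4 of 4 tested, the most abundant Lhx2) summed to 1391, 1082 and 834 CPM in Ctrl, 634, 598 and 670.4 in cKO and 796, 1061 and 1021 in dcKO. The cKO libraries were below Ctrl, and dcKO overlapped Ctrl. In cKO the median log2 fold change was -0.81, and DESeq2 called 2, Emx1 and Lhx2, both lower and named after their values were seen (8.82% of all genes). Radial glia markers (8 of 8, Vim) summed to 3199, 2988 and 2795 CPM in Ctrl, 3104, 3300.0 and 2736 in cKO and 2838, 3142 and 3159 in dcKO. The sums overlapped, but the genes did not agree. Vim, which carries most of the sum in cKO, had 1496, 1332 and 1159 CPM in Ctrl, 1768, 2030.0 and 1659 in cKO and 1679, 1255 and 2019 in dcKO, above Ctrl in every cKO library, while 4 of the 8 were below Ctrl in every cKO library (28.0% of all genes) and the median log2 fold change in cKO was -0.23. DESeq2 called 1 of them in cKO, Hes5, lower and named after its values were seen. Intermediate progenitor markers (5 of 5, Eomes) summed to 497, 444 and 396 CPM in Ctrl, 440.3, 393 and 360.5 in cKO and 337, 675 and 398 in dcKO. The library labelled dcKO replicate 2 was the highest. Cortical neuron markers (8 of 8, Tubb3) summed to 1524, 1344 and 1100.0 CPM in Ctrl, 1122, 1202 and 748 in cKO and 544, 1188 and 1201 in dcKO. The sums overlapped, and dcKO replicate 1 was the lowest. Tubb3 had 768, 673 and 481 CPM in Ctrl, 313, 408 and 268 in cKO and 114, 223 and 624 in dcKO, below Ctrl in every cKO library and in dcKO replicates 1 and 2. In cKO 3 of the 8 were below Ctrl in every library (28.0% of all genes) and the median log2 fold change was -0.58, while Neurod6, Tbr1 and Stmn2 had values above 0, 0.82, 0.27 and 0.03, and edgeR and DESeq2 called 0 of the 8. Erythroid markers (7 of 7, Hbb-y) summed to 7745, 9220.0 and 6475 CPM in Ctrl, 12200.0, 8021 and 11080.0 in cKO and 5875, 4294 and 5109 in dcKO. In the sum every cKO library was above every dcKO library, as in 4 of the 7 genes (3.63% of all genes).

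Meningeal fibroblast markers (5 of 5, Col3a1) summed to 780.5, 848 and 770.4 CPM in Ctrl, 488, 678 and 444 in cKO and 316, 327 and 511 in dcKO. All mutant libraries were below Ctrl in the sum, which the 3 collagen genes carry, while Lum and Dcn had log2 fold changes of 0.19 and 0.00 in cKO and -0.05 and -0.33 in dcKO. Endothelial markers (6 of 6, Kdr) summed to 198, 239.9 and 255 CPM in Ctrl, 250.5, 252 and 182 in cKO and between 116.9 and 138.5 in dcKO, so that all dcKO libraries were below all others in the sum. By gene, 4 of the 6 were below Ctrl in every dcKO library (11.2% of all genes). Cldn5 and Egfl7, named after their values were seen, overlapped Ctrl, and Egfl7 had a log2 fold change of 0.02 in dcKO. Microglia and macrophage markers (5 of 6 tested, Csf1r) summed to 37.2, 45.9 and 38.6 CPM in Ctrl, 61.1, 82.7 and 40.3 in cKO and 23.3, 13.8 and 34.1 in dcKO. The dcKO libraries were below all others in the sum, and Aif1 had 0 reads in the library labelled dcKO replicate 2. By gene, 3 of the 5 tested were below Ctrl in every dcKO library (11.2% of all genes). C1qa and Fcer1g, named after their values were seen, overlapped Ctrl. All 5 were below cKO in every dcKO library (3.63%). Markers of the subpallium and interneurons (1 of 7 tested, Lhx6) summed to 1.43, 1.19 and 1.51 CPM in Ctrl, 2.74, 4.54 and 2.26 in cKO and 2.17, 8.66 and 1.78 in dcKO. In the library labelled dcKO replicate 2 Gsx2 had 96 reads, Dlx2 88, Gad2 80 and Dlx1 47, while in the other 8 libraries Gsx2 had 0 reads and the other 3 had at most 8, and Dlx5 and Gad1 had 0 reads in 6 libraries each and at most 5 in any. Choroid plexus markers (0 of 5 tested, Ttr) summed to 0.652, 1.83 and 1.37 CPM in Ctrl, 14.3, 26.2 and 56.6 in cKO and 92.6, 10.5 and 15.8 in dcKO. Ttr had 0 reads in all Ctrl libraries and 162, 292 and 870 reads in cKO and 2050, 134 and 149 in dcKO, and Kcne2 had 0 reads in 2 Ctrl libraries and in the library labelled dcKO replicate 2. In dcKO edgeR called 0 of the markers, and DESeq2 called Mapt, Hba-a1, Hba-x, Hbb-bt, Cdh5, Tie1, Col1a1, Col1a2 and Col3a1, all lower and, apart from Col3a1, named after their values were seen (8.46% of all genes).

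Promoter windows of 250 bases before to 50 after the start were found for 66 of the 80 members in RefSeq (GRCm38.p6), and not for the others, among them Cox4i1, Uqcrb and Uqcrq. Letters of factors known for respiratory genes were searched on both strands. The NRF1 letters GCGCATGC were in 10 of the 66 (15.2%), in 6.13% of 9945 tested genes with a window and in 2.71% of all 32851 windows. The ETS core CCGGAAG was in 16 (24.2%), beside 20.4% and 8.86%. The YY1 core AAGATGGCG was in 7 (10.6%), beside 3.61% and 1.40%, and the SP1 core GGGCGG in 28 (42.4%), beside 70.8% and 35.7%. At least 1 of the letters of NRF1, ETS and YY1 was in 27 (40.9%), beside 27.6% of the tested genes and 12.1% of all windows. A match is a description of the sequence and says nothing of binding or of a cause.

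The stretches of 30 bases printed here are those of the named members with an NRF1 or ETS match within 80 bases before the start, shown because these members include genes with low values in cKO. Each is written in the direction of its gene, with the match in capitals, on GRCm38.p6. They are Uqcrh at chr4:116075071-116075100, - strand, Sdhb at chr4:140961206-140961235, + strand, Cox6a1 at chr5:115348959-115348988, - strand, Cox6b1 at chr7:30626125-30626154, - strand, Ndufb7 at chr8:83566726-83566755, + strand, Uqcr11 at chr10:80406870-80406899, - strand and Atp5g2 at chr15:102671070-102671099, - strand. The ETS letters are on the given strand in Ndufb7 and Uqcr11 and on the other strand in Uqcrh, Cox6a1 and Cox6b1. In Sdhb the NRF1 letters are on the other strand, and in Atp5g2 they are on both strands and overlap. The Uqcr11 stretch lies outside annotated exons of GENCODE M21, and the others overlap an exon of their own gene.
Uqcrh: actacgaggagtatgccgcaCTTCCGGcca
Sdhb: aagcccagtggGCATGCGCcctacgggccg
Cox6a1: cgtccccatttccgCTTCCGGcgcgccggt
Cox6b1: ctcctctcgcagCTTCCGGccagtcggaat
Ndufb7: agcctagatgacCCGGAAGacactgaaggg
Uqcr11: tttctctcctccCCGGAAGtagatgtcaat
Atp5g2: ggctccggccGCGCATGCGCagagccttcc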

How the data were processed

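The authors deposited raw counts for 57010 genes, made with featureCounts after FastQC, cutadapt and alignment to mm39 with STAR, from stranded poly(A) libraries of 9 embryos. The annotation release and the strand setting are not given in the sources used here. Columns were joined to embryos by their labels. The minimum of more than 10 reads in all 9 libraries left 13680 genes, tested in R 4.3.3 with the quasi-likelihood test of edgeR 4.0.16, TMM factors and a group term. The Benjamini-Hochberg adjustment ran over all genes tested, and the SE is the log2 fold change divided by the square root of F. DESeq2 1.42.0, voom with quality weights in limma 3.58.1 and edgeR on the 6 libraries compared were alternatives, with other factors, filters and thresholds, each library left out, protein-coding genes only, the replicate number as a block, and corrections for GC content and length (loess span 0.3). The settings DESeq2 without dcKO replicate 2, and 6 libraries with a GC correction, were chosen after seeing the data. Transcripts, GC content and coordinates came from GENCODE M21 on GRCm38, and promoters from RefSeq. Named members are, in each complex, the highest level per length and the highest and lowest mean change, the genes called by edgeR or DESeq2, core subunits and isoform groups. The members and lists were chosen with earlier results of these data known. The common biological coefficient of variation was 0.318. A result withheld for evaluation is not reported here. The scripts were tested on simulated data with changes in cKO. At a log2 fold change of 1 in size edgeR recovered 15 of 99 changed genes at an adjusted p under 0.05 and DESeq2 31, so both missed most of them. At 2 in size they recovered 84 and 87 of 92. Of the unchanged genes edgeR called 1 and DESeq2 27. Python 3.11.15, pandas 2.3.3, numpy 2.4.6 and matplotlib 3.10.9 were used for tables and figures.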

Additional observations from a re-analysis of the deposited data

How the results depend on the processing

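The members' median log2 fold change was below 0 under all 23 alternatives in cKO and in dcKO, and in dcKO against cKO it was below 0 under 5. In cKO the median was -0.18 with upper-quartile factors, -0.34 with filterByExpr, -0.34 with no filter and -0.20 with the correction for GC content and length, and it ranged from -0.33 to -0.27 with 1 library left out. In dcKO it was -0.39 with voom, and -0.34 to -0.09 with 1 library left out. In dcKO against cKO it was -0.18 with voom, and -0.12 to 0.17 with 1 library left out.

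In cKO, where edgeR called 0, there were, with the share of all genes called in brackets, 1 with DESeq2 (8.82%), 12 with voom (13.7%; 2 higher, 7.0%, and 10 lower, 6.66%), 2 with no filter (3.03%), 11 with only the 6 libraries compared (12.9%), 4 with the GC correction (5.34%), 2 with the GC and length correction (4.97%), and, chosen after seeing the data, 4 with DESeq2 without dcKO replicate 2 (11.1%) and 8 with 6 libraries and the GC correction (9.7%). At an adjusted p under 0.1 there was 1 (7.54%), and 11 with no fold limit (14.2%). With 1 library left out the count ranged from 0 to 10. In dcKO there were 25 with voom (26.8%; 2 higher, 10.9%, and 23 lower, 15.9%), 2 with no filter (2.58%), 5 with DESeq2 without dcKO replicate 2 (12.0%) and 14 at an adjusted p under 0.1 with no fold limit (16.8%), and 0 to 21 with 1 library left out. In dcKO against cKO there were 0 to 8 with 1 library left out. The cause was not tested.

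The members whose dcKO libraries were all above Ctrl numbered 3 after the GC correction (12.1% of all genes). In dcKO against cKO, those all above numbered 0 with RLE factors (2.14%), 0 with upper-quartile factors (1.62%) and 1 after the GC correction (4.95%), and those all below 4 with upper-quartile factors (5.42%) and 2 after the GC correction (4.56%). Without dcKO replicate 3 the log2 fold change in dcKO against cKO was reversed for Ndufb7, -1.73 (adjusted p = 0.0173), and Uqcr11, -1.43 (adjusted p = 0.0278), and, outside the naming rule, for Ndufa13, -1.10 (adjusted p = 0.0146), and Ndufs7, -1.96 (adjusted p = 0.0144). With 1 library left out the values of Ndufb7 ranged from -1.73 to 0.82 and those of Uqcr11 from -1.43 to 1.16. The cause was not tested. Of the other results for named members, 1847 kept their side of the threshold within 1 SE of the value reported, 157 moved by more without a call, and 64 passed the threshold with the same direction. For complex medians 322 were within 1 SD and 23 moved by more.

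With the block of replicate numbers 0 members and 0 of all genes were called by edgeR in each comparison (cKO, dcKO and dcKO against cKO), so these counts say nothing of the members, and the medians were -0.27, -0.28 and -0.01, and -0.28, -0.22 and 0.03 with the block and the GC correction. Over genes, deviations from the group mean had a mean r of -0.17 between libraries with the same replicate number (9 pairs) and 0.08 between others (18 pairs).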
